A study of Rattus norvegicus with 6 samples.

Results

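The antioxidant and glutathione genes of the rat pituitary gland were read out in RNA-seq libraries of 3 nicotine-exposed and 3 control male rats. They were chosen by gene symbol alone, as all glutathione S-transferases (Gst), glutathione peroxidases (Gpx), peroxiredoxins (Prdx), superoxide dismutases (Sod), thioredoxins and their reductases (Txn, Txnrd), with Nqo1, Nqo2, Hmox1, Hmox2, Gclc, Gclm, Gsr, Gss, Cat, Srxn1, Nfe2l2 and Keap1. Of the 33294 gene symbols counted, 56 belong to this set, and 51 of these had enough counts to be tested. The nicotine group were Sprague-Dawley males aged 11 weeks whose dams carried a subcutaneous pump delivering nicotine tartrate at 6 mg/kg per day, and the control group were males of the same strain and age whose dams carried a saline pump. The pumps were of a 28-day type and birth came 13 days after surgery, and the sources used here do not say whether pumps were left in place after birth. How many litters the rats came from is not given there either, so littermates may be among them. The labels name the pituitary gland without separating its lobes, and in such bulk tissue fewer cells of a type and less RNA per cell cannot be told apart.

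Reactive oxygen species are removed in steps. Superoxide dismutases turn superoxide into hydrogen peroxide, which catalase, glutathione peroxidases and peroxiredoxins then break down, with water as a product. Glutathione peroxidases draw on glutathione, built by glutamate-cysteine ligase (Gclc, Gclm) and glutathione synthetase (Gss) and kept reduced by glutathione reductase (Gsr), and peroxiredoxins draw on thioredoxin, kept reduced by thioredoxin reductases. Glutathione S-transferases attach glutathione to reactive compounds, lipid peroxidation products among them. Many of these genes are switched on by NRF2 (Nfe2l2), a transcription factor that KEAP1 holds at a low level until oxidants or electrophiles modify it, and that binds a short DNA motif, the antioxidant response element.

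Totals per library lay between 28318383 and 85977002 counts, and the 51 tested genes were compared within one fit of all 17292 genes tested. Nicotine replicates 1, 2 and 3 held 46239801, 85977002 and 62932317 counts. Control replicates 1, 2 and 3 held 28318383, 54309256 and 37095718. The paper's list of reads per library is the other way round, with more reads for the control group than for the nicotine group. Its text names Acta2 and Erbb4 as higher after nicotine, as they were under the labels used here. All directions below rest on these labels, and the discrepancy was not resolved. The libraries labelled pituitary held the hormone cell markers Gh1, Prl, Pomc, Lhb, Fshb, Tshb, Cga and Pou1f1 at 114000 to 177000 CPM (counts per 1000000 of the TMM-scaled library total) in sum, and 10 testis germ cell genes at 0.53 to 1.24 CPM in sum. Summed markers of other cell types were not level across the libraries. The summed level of 5 posterior lobe genes was 22.4, 42.2 and 31.2 CPM in nicotine replicates 1, 2 and 3 and 21.0, 24.9 and 6.76 CPM in control replicates 1, 2 and 3. The summed level of 10 fibroblast and meningeal genes was 437 to 1040 CPM after nicotine and 1050 to 1250 CPM in controls, and that of 11 erythroid genes was 3310 to 10500 CPM and 8710 to 17400 CPM. Of these, 7 of the 10 and 9 of the 11 were lower after nicotine at an unadjusted p under 0.05 in edgeR, as 3.01% of all genes tested were. Macrophage genes, 9 in number, summed to 264 to 438 CPM after nicotine and to 452 to 541 CPM in controls. The 8 neutrophil genes summed to 20.7 to 22.8 CPM after nicotine and to 133, 6.68 and 97.9 CPM in control replicates 1, 2 and 3. Nicotine replicate 2 stood apart in the 77 cytosolic ribosomal protein genes, which summed to 48950 CPM there and to 79290 to 92380 CPM in the other 5 libraries. The part of these differences in the results below was not tested, except where a value is given.

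The sequence NRF2 recognises is short enough to look for near the gene starts. RefSeq promoters on the GRCr8 build, from 250 bases before to 50 bases after the start of each gene, were matched by symbol for 49 of the 56 genes. The core of the antioxidant response element was searched as TGACNNNGC on both strands. It was in 17 of these 49 genes (34.7%) and in 13.1% of all 27457 symbols with a promoter. The stretches below are shown because they belong to textbook NRF2 targets (Gclm, Txnrd1), hold the identical letters TGACTCAGC (Gstp1, Prdx1), or lie in a gene with one of the lower unadjusted p-values of the set (Gpx2). They run 5′ to 3′ along the gene, the match is in capitals, and it reads GC before NNNGTCA where it is on the opposite strand.
Gclm (chr2:213031938-213031996, + strand): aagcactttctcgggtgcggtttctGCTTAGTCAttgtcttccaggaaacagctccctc
Txnrd1 (chr7:22755949-22756007, - strand): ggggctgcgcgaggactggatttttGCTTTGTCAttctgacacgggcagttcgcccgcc
Gstp1 (chr1:210769733-210769791, - strand): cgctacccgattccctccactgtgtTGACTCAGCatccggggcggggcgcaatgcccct
Prdx1 (chr5:135383746-135383804, + strand): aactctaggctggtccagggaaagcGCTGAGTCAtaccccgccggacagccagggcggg
Gpx2 (chr6:101230034-101230071, - strand): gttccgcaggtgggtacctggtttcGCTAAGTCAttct
The first base of the match lies 172 bases before the start of Gclm, 78 before that of Txnrd1, 61 before that of Gstp1, 135 before that of Prdx1 and 13 before that of Gpx2. A match is a description of the letters and not of a bound site, and genes without a match may hold one outside this window.

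None of the antioxidant and glutathione genes differed between the nicotine-exposed and control pituitary when a call needed an adjusted p below 0.1 and a difference above 1.5-fold. With edgeR (quasi-likelihood) 0 of the 51 genes were called, and the background was 0% of the 17292 genes tested. DESeq2 called 0 of the 55 genes with an unadjusted p there, and 61 of all 24539 such genes (0.249%). Genes that its filter left without an adjusted p, Gpx5, Gsta2 and Gsta5 among them, are in these totals but could not be called. An unadjusted p under 0.05 in edgeR was reached by 4 of the 51 genes, or 7.84%, against 6.14% of all genes. All 4 were higher after nicotine, namely Gsta4, Nqo2, Sod3 and Gpx2, where 3.13% of all genes were higher and 3.01% were lower at this level, and 0 of the 51 genes were lower. The nicotine and control libraries did not overlap for 4 of the 51 genes, a share of 7.84% against 11.3% of all genes. Of these 4, Gsta4 and Nqo2 were higher after nicotine, as 6.12% of all genes were, and Gstm4 and Gstcd were lower, as 5.14% of all genes were.

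The plot of changes by role shows how small most of them were. The median log2 fold change (nicotine minus control) was 0.01 over the 51 genes and 0.007 over all genes tested, with 27 of the 51 genes above 0. Its median size regardless of sign was 0.16 for the set and 0.19 for all genes, and the median standard error (SE) was 0.20. Adjusted p-values from edgeR ran from 0.760 to 0.995. The spread among rats of one group was as wide as that of other genes, with a median SD of 0.23 on the log2(CPM + 0.5) scale against 0.24 for all genes. Within the set it ran from 0.06 for Gstcd to 0.92 for Srxn1.

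**Figure D1:**
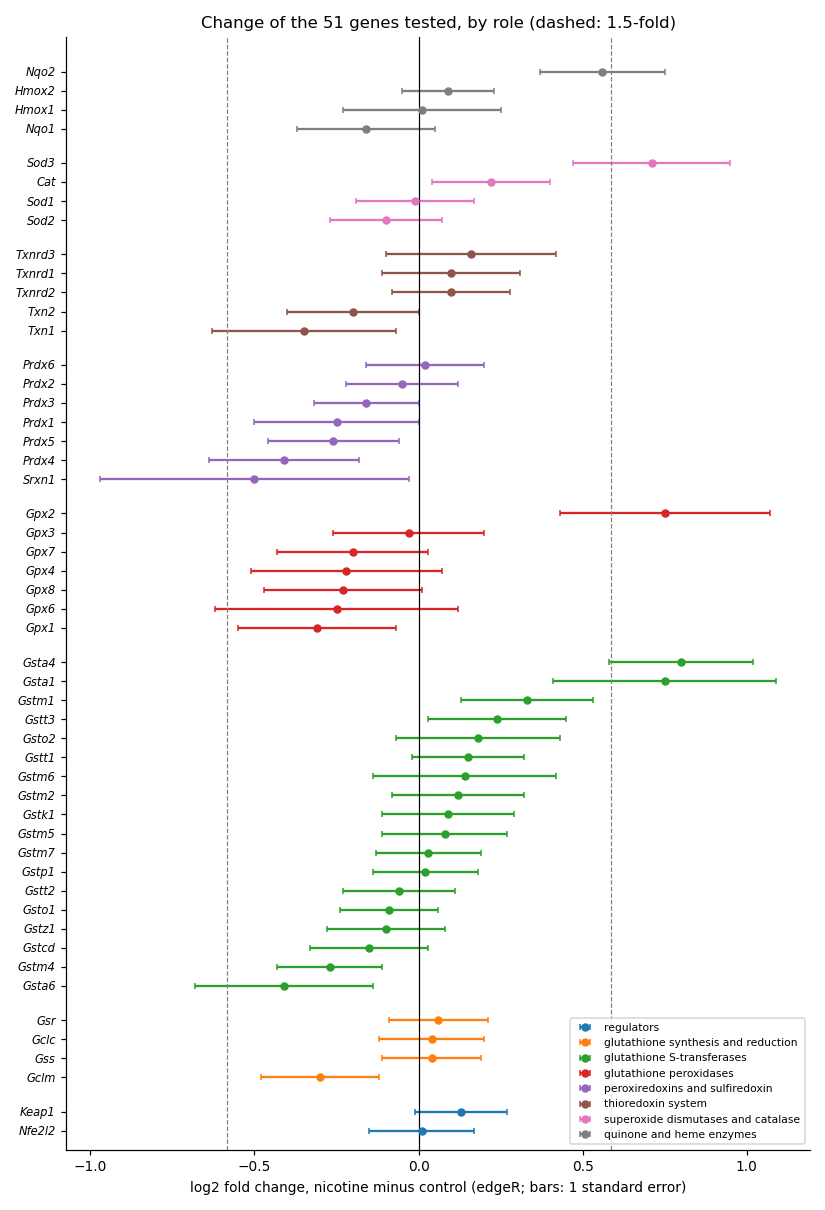
Log2 fold change (nicotine minus control, from edgeR) of the 51 antioxidant and glutathione genes tested, grouped and coloured by role, with bars of 1 standard error and dashed lines at a fold change of 1.5. Most points lie within 0.5 of 0, and Gsta4, Gsta1, Gpx2, Sod3 and Nqo2 lie furthest to the right, between 0.56 and 0.80.

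The regulators had closely similar levels in both groups. Nfe2l2, which encodes NRF2, was at 51.5, 43.7 and 37.8 CPM in nicotine replicates 1, 2 and 3 and at 42.1, 47.0 and 42.7 CPM in control replicates 1, 2 and 3. The control values thus lay inside the nicotine range, with a log2 fold change of 0.01 (SE 0.16, edgeR adjusted p = 0.990). Keap1, which encodes the adaptor that marks NRF2 for degradation, was at 101, 112 and 94.4 CPM after nicotine and at 91.2, 94.5 and 94.4 CPM in controls. Its log2 fold change was 0.13 (SE 0.14, edgeR adjusted p = 0.870).

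Genes used as textbook readouts of NRF2 activity gave no common direction. Nqo1, a quinone reductase, was at 8.93, 13.8 and 13.5 CPM after nicotine and at 15.0, 13.4 and 12.3 CPM in controls, so that only nicotine replicate 1 stood below the rest (log2 fold change -0.16, SE 0.21, edgeR adjusted p = 0.893). Hmox1, the inducible heme oxygenase, was at 5.43, 7.18 and 7.80 CPM after nicotine and at 7.83, 5.31 and 7.24 CPM in controls, and the groups covered nearly the same range (log2 fold change 0.01, SE 0.24, edgeR adjusted p = 0.995). Txnrd1, the cytosolic thioredoxin reductase, was at 47.6, 67.7 and 41.9 CPM after nicotine and at 42.9, 44.4 and 59.4 CPM in controls. Its log2 fold change was 0.10 (SE 0.21) with all libraries and -0.14 without nicotine replicate 2. Of the 8 readouts listed for this purpose (Nqo1, Hmox1, Gclc, Gclm, Srxn1, Txnrd1, Gsr and Txn1), 0 had an unadjusted p under 0.05 in edgeR, where 6.14% of all genes had, and 0 were called by DESeq2. With single libraries left out, Gclm and Srxn1 passed this level, as given for each below.

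Among the genes of glutathione synthesis and reduction, Gclc, Gss and Gsr differed little between the groups, and Gclm was lower in part of the nicotine libraries. Gclc, the catalytic subunit of glutamate-cysteine ligase, was at 21.2, 25.4 and 22.6 CPM after nicotine and at 20.9, 24.0 and 22.3 CPM in controls, a log2 fold change of 0.04 (SE 0.16). Gss was at 28.5 to 33.7 CPM after nicotine and 29.0 to 32.6 CPM in controls, and Gsr at 32.4 to 40.2 CPM and 33.6 to 34.7 CPM, with log2 fold changes of 0.04 and 0.06. These 3 genes differed by less than the spread between replicates. Gclm, the modifier subunit that raises the efficiency of the ligase, was at 31.6, 37.3 and 25.4 CPM after nicotine and at 42, 34.9 and 39.3 CPM in controls. Of the nicotine libraries only replicate 2 reached the control range (log2 fold change -0.30, SE 0.18, edgeR adjusted p = 0.826). Without it the log2 fold change of Gclm was -0.45 (edgeR unadjusted p = 0.0201), and without nicotine replicate 3 it was -0.17. With limma-voom it was -0.39 (unadjusted p = 0.0351).

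The highest log2 fold change of the whole set was that of a glutathione S-transferase, Gsta4, an alpha class enzyme that conjugates 4-hydroxynonenal, a product of lipid peroxidation. Gsta4 was at 49.4, 41.4 and 31.7 CPM in nicotine replicates 1, 2 and 3 and at 29.5, 22.4 and 18.6 CPM in control replicates 1, 2 and 3. The lowest nicotine library was thus above the highest control library, with means of 40.8 ± 8.83 CPM and 23.5 ± 5.54 CPM (SD, n = 3 each). The log2 fold change was 0.80 (SE 0.22), a 1.74-fold higher level with an unadjusted p of 0.00379 and an adjusted p of 0.760 in edgeR. It was the gene with the smallest p of the set and stood at position 74 among all genes tested. In DESeq2 its adjusted p was 0.171 with all libraries, 0.0251 without nicotine replicate 3 and 0.0643 without control replicate 1, and over 15 refits, that of DESeq2 with all libraries included, the adjusted p ran from 0.171 to 0.944. The log2 fold change lay between 0.64 and 0.99 as each library was left out of the edgeR fit.

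Gsta1, a liver-type alpha class transferase, had a similar fold and a far wider spread. It was at 134, 264 and 211 CPM after nicotine and at 185, 111 and 64.9 CPM in controls, so the groups overlapped. Its log2 fold change was 0.75 (SE 0.34, edgeR unadjusted p = 0.0515, adjusted p = 0.807). The value was 1.2 without control replicate 1 and 0.46 without control replicate 3, and DESeq2 called the gene only in the fit without control replicate 1 (adjusted p = 0.0847, against 0.542 to 0.957 over the same 15 refits). Gsta6, of the same class, pointed the other way, at 26.2, 12.5 and 21.3 CPM after nicotine and 32.3, 26.9 and 20.4 CPM in controls (log2 fold change -0.41, SE 0.27). Its value was -0.65 (edgeR unadjusted p = 0.0361) without nicotine replicate 1, -0.16 without nicotine replicate 2 and -0.25 without control replicate 1. Gsta2, Gsta3, Gsta5 and Gstt4 were not tested. They had at most 0.369 CPM in any library, and Gstt4 had 0 counts in all 6. How alike the alpha class genes are in sequence was not computed. Reads shared between them could have been split by the counting or lost from it, and their values are uncertain to that extent.

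The mu class transferases, 6 genes that were all tested, had log2 fold changes from -0.27 to 0.33. Gstm4 was at 41.8, 39.3 and 40.4 CPM after nicotine and at 57.0, 46.1 and 43 CPM in controls, each nicotine library being below each control library. The difference rested in part on control replicate 1, with a log2 fold change of -0.27 (SE 0.16, edgeR adjusted p = 0.826) that was -0.14 without it. Gstm1 was at 30.0, 48.0 and 48.0 CPM after nicotine and at 31.4, 36.8 and 32.4 CPM in controls (log2 fold change 0.33, SE 0.20). Its value was 0.52 (edgeR unadjusted p = 0.0123) without nicotine replicate 1, and 0.21 and 0.22 without nicotine replicates 2 and 3. The other 4 mu class genes, Gstm2, Gstm5, Gstm6 and Gstm7, had log2 fold changes between 0.03 and 0.14. Likeness within this class was not computed either, and reads shared within it could make its single values uncertain as well. Gstp1, the pi class enzyme printed above with its promoter match, was at 221 to 267 CPM after nicotine and 226 to 248 CPM in controls (log2 fold change 0.02, SE 0.16). Of the 22 transferase genes 18 were tested, 12 with a log2 fold change above 0 and 6 below it, but 9 and 9 without nicotine replicate 2 and likewise without nicotine replicate 3.

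**Figure D2:**
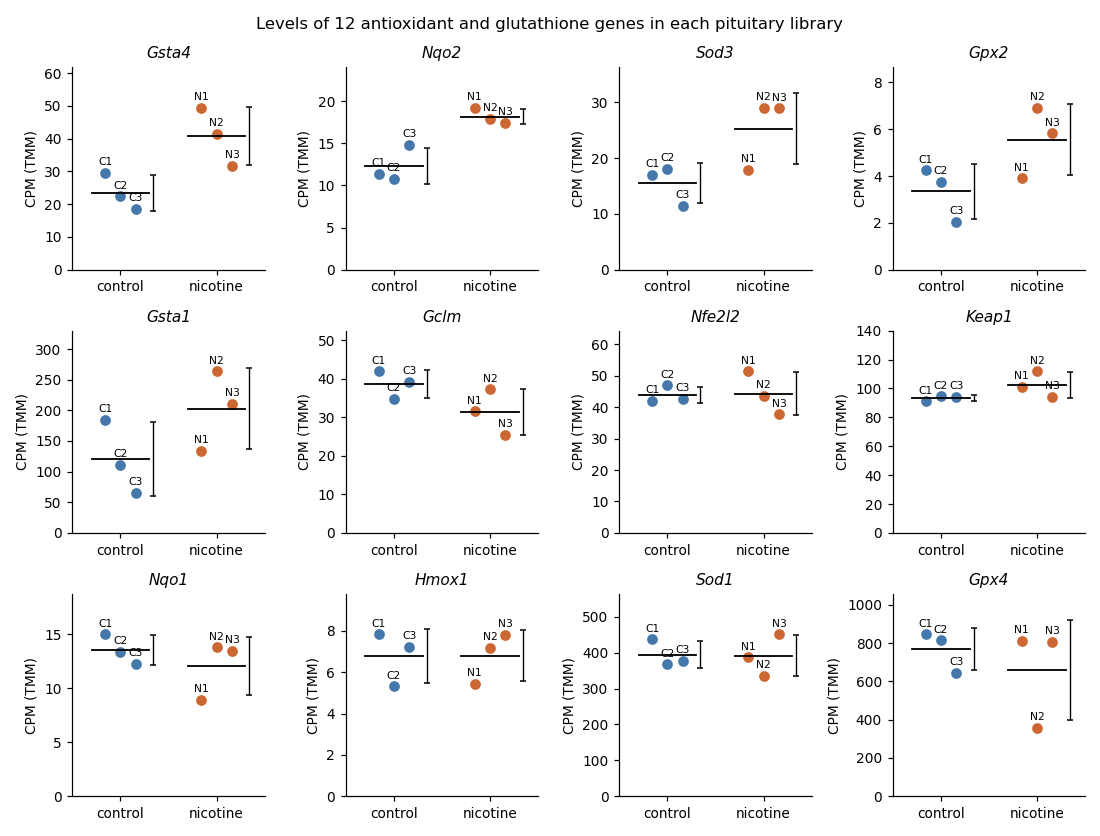
Level in CPM after TMM normalization (y axes, from 0) of 12 of the genes in each library (points; C1 to C3 control, N1 to N3 nicotine), with the group mean as a line and 1 SD as a bar to its right. Gsta4 and Nqo2 show no overlap of the groups, the values of Nfe2l2, Hmox1 and Sod1 overlap, and Gpx4 is at 358 CPM in N2 against 643 to 845 CPM elsewhere.

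Of the glutathione peroxidases only Gpx2 had a log2 fold change above 0. Gpx2, an epithelial selenoenzyme and a known NRF2 target, was at 3.90, 6.91 and 5.83 CPM after nicotine and at 4.25, 3.76 and 2.03 CPM in controls. Nicotine replicate 1 lay among the controls, and the log2 fold change was 0.75 (SE 0.32, edgeR unadjusted p = 0.0382, adjusted p = 0.806). It was 0.49, with an unadjusted p of 0.146, without control replicate 3, and the unadjusted p of Gpx2 was also above 0.05 when nicotine replicate 2 (0.113) was left out, as it was for nicotine replicate 3 (0.0764) and control replicate 2 (0.0520). Gpx1, the general cytosolic peroxidase, was at 349, 207 and 376 CPM after nicotine and at 448, 379 and 324 CPM in controls (log2 fold change -0.31, SE 0.24). Gpx4, which reduces lipid hydroperoxides in membranes and guards cells against ferroptosis, was at 813, 358 and 805 CPM after nicotine and at 845, 815 and 643 CPM in controls. Its log2 fold change of -0.22 (SE 0.29) turned to 0.07 without nicotine replicate 2. Gpx3, the secreted peroxidase, was at 896, 818 and 1090 CPM after nicotine and 1070, 1060 and 744 CPM in controls (log2 fold change -0.03, SE 0.23). Gpx5 was not tested, having a count in 1 library only. Of the 7 peroxidase genes tested, 6 were below 0 with all libraries and 4 without nicotine replicate 2.

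Nicotine replicate 2 also weighed on several peroxiredoxins and thioredoxins. Txn1, the cytosolic thioredoxin, was at 424, 181 and 409 CPM after nicotine and at 460, 444 and 384 CPM in controls. Its log2 fold change was -0.35 (SE 0.28, edgeR adjusted p = 0.843) with all libraries and -0.05 without nicotine replicate 2. Prdx4, the peroxiredoxin of the endoplasmic reticulum, where it takes part in the folding of secreted proteins, was at 210, 117 and 209 CPM after nicotine and at 280, 232 and 202 CPM in controls. Its log2 fold change of -0.41 (SE 0.23, edgeR adjusted p = 0.821) was -0.19 without that library. Prdx2 did not share this pattern, at 406, 402 and 459 CPM after nicotine and 471, 413 and 428 CPM in controls (log2 fold change -0.05, SE 0.17). Of the 7 peroxiredoxin and sulfiredoxin genes 6 were below 0, with a median log2 fold change of -0.25. Without nicotine replicate 2 all 7 were below 0 with a median of -0.07, without control replicate 1 it was 5 with a median of -0.04, and without nicotine replicate 1 it was 6 with a median of -0.39.

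These libraries can be seen in the picture of all genes by library. Nicotine replicate 2 held the lowest value for 17 of the 51 genes (33.3%, against 26.8% of all genes tested) and the highest for 12 (23.5%, against 26.9%). Control replicate 1 held the highest value for 23 of the 51 genes (45.1%, against 20.2% of all genes tested), and for 6 of the 7 peroxiredoxin and sulfiredoxin genes. The summed level of the 56 genes was 6238, 4975 and 6583 CPM in the nicotine libraries and 7072, 6407 and 5556 CPM in the control libraries, so nicotine replicate 2 was lowest and control replicate 1 highest.

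**Figure D3:**
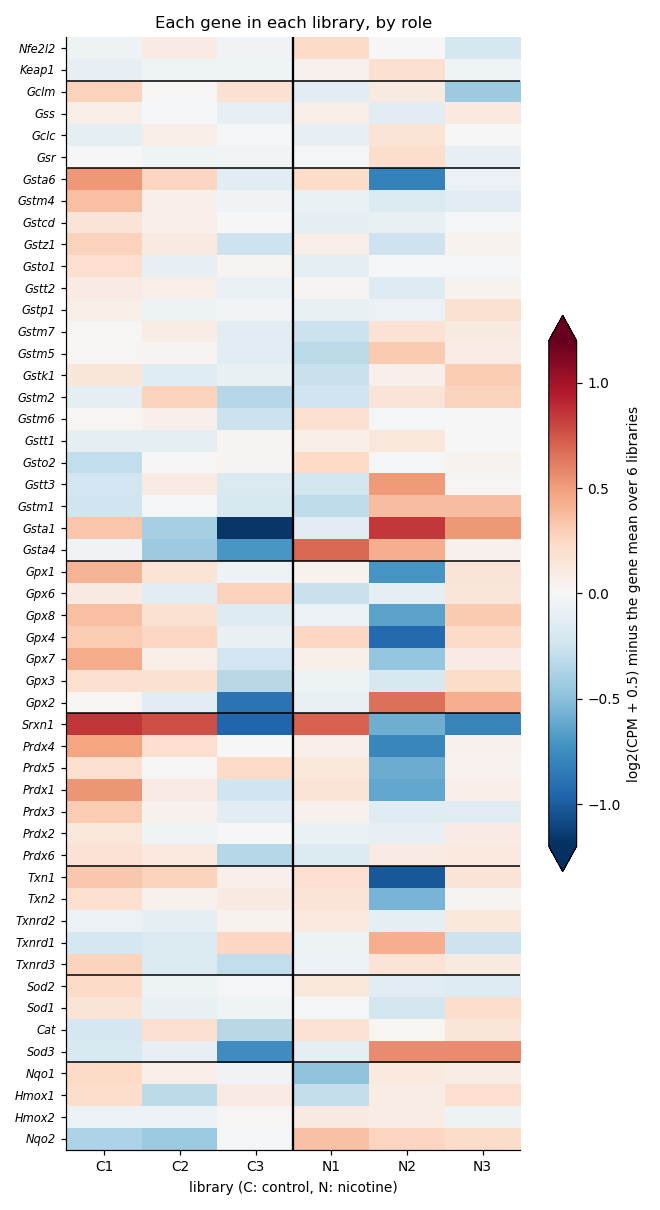
Log2(CPM + 0.5) of each of the 51 genes tested (rows, by role, with lines between roles) in each library (columns; C control, N nicotine), minus the gene's mean over the 6 libraries; red is above and blue below that mean. Column N2 is blue for Txn1, Gpx4, Gsta6 and Prdx4, column C1 is red for most rows, and Srxn1 is red in C1, C2 and N1.

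The superoxide dismutases of the cytosol and mitochondria had log2 fold changes near 0, whereas the secreted enzyme had higher levels in part of the nicotine libraries. Sod1 was at 387, 336 and 451 CPM after nicotine and at 437, 368 and 378 CPM in controls (log2 fold change -0.01, SE 0.18, edgeR adjusted p = 0.995). Sod2, the mitochondrial enzyme, was at 316, 262 and 259 CPM after nicotine and at 337, 276 and 284 CPM in controls (log2 fold change -0.10, SE 0.17). Sod3, the extracellular enzyme of vessel walls and matrix, was at 17.9, 29.0 and 28.9 CPM after nicotine and at 17.0, 18.1 and 11.4 CPM in controls. Nicotine replicate 1 lay between control replicates 1 and 2, while the other two nicotine libraries were above every control. The log2 fold change of Sod3 was 0.71 (SE 0.24, edgeR unadjusted p = 0.0135, adjusted p = 0.760). It was 0.53 with an unadjusted p of 0.059 without control replicate 3, and DESeq2 called the gene in the fit without nicotine replicate 1 (adjusted p = 0.0919, against 0.390 to 1 over the same 15 refits). Cat, the peroxisomal catalase, was at 28.3, 25.5 and 27.7 CPM after nicotine and at 21.7, 28.6 and 19.7 CPM in controls (log2 fold change 0.22, SE 0.18).

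The levels of Sod3 and Gpx2 were highest and lowest in the same libraries as the sum of the posterior lobe markers. The 5 markers, Rax, Nkx2-1, Gfap, Col25a1 and Lhx2, had their highest sum in nicotine replicate 2 (42.2 CPM), the next in nicotine replicate 3 (31.2 CPM) and the lowest in control replicate 3 (6.76 CPM). Sod3 and Gpx2 also had their highest levels in nicotine replicates 2 and 3 and their lowest in control replicate 3, and so did Gsta1. Over all genes tested, nicotine replicate 2 was the highest library for 26.9% and control replicate 3 the lowest for 14.7%. The share of all genes with the whole pattern was not counted. Among the markers 4 of 5 had an unadjusted p under 0.05 in edgeR, all of them higher after nicotine, as 3.13% of all genes tested were. The exception was Gfap, which was at 4.21 to 6.00 CPM after nicotine and 3.10 to 14.8 CPM in controls. Gsta4 was also lowest in control replicate 3 (18.6 CPM), like the markers, and Nqo2 was lowest in control replicate 2 (10.8 CPM). Both Gsta4 and Nqo2 had their highest level in nicotine replicate 1, where the markers summed to 22.4 CPM, inside the control range. The top of that range was 24.9 CPM in control replicate 2, of which Gfap gave 14.8 CPM. Without Gfap, nicotine replicate 1 was near control replicate 1. Rax, Nkx2-1, Col25a1 and Lhx2 were at 5.16, 2.44, 6.3 and 4.05 CPM in the former and 5.69, 2.07, 5.28 and 4.91 CPM in the latter. Endothelial markers summed to 250, 186 and 303 CPM after nicotine and to 160, 202 and 149 CPM in controls, and smooth muscle and pericyte markers to 84.2, 63.0 and 233 CPM and to 70.5, 71.1 and 56.6 CPM. The part of these cell types in the levels of Sod3, Gpx2, Gsta1, Gsta4 and Nqo2 was not tested.

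**Figure D4:**
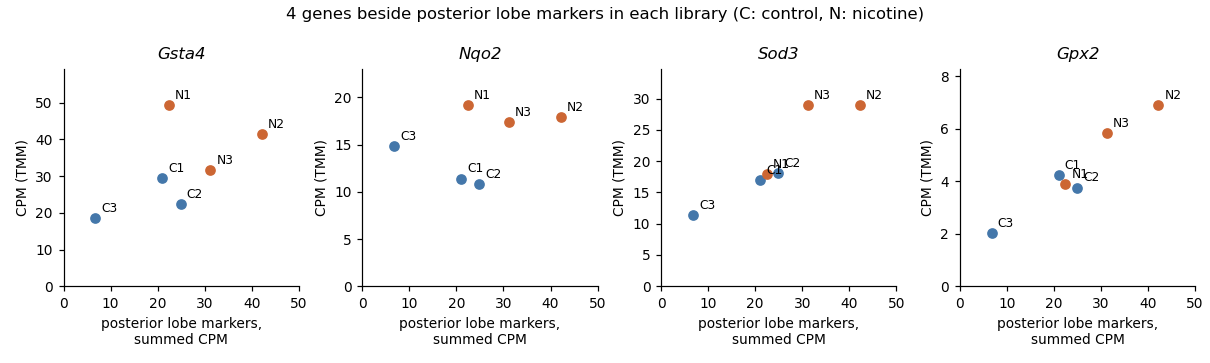
Level in CPM (y axes, from 0) of Gsta4, Nqo2, Sod3 and Gpx2 against the summed CPM of the 5 posterior lobe markers (x axes) in each library (C control, N nicotine). Sod3 and Gpx2 are lowest in C3 and highest in N2 and N3 along with the markers. Gsta4 is lowest in C3 too, and Gsta4 and Nqo2 are highest in N1 at a marker sum of 22.4 CPM.

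Of the quinone and heme enzymes, Nqo2 was the one with groups that did not overlap. Nqo2, a quinone reductase that uses dihydronicotinamide riboside in place of NADPH, was at 19.2, 17.9 and 17.4 CPM after nicotine and at 11.4, 10.8 and 14.8 CPM in controls. The means were 18.2 ± 0.951 CPM and 12.3 ± 2.18 CPM (SD, n = 3 each), and the log2 fold change was 0.56 (SE 0.19, edgeR unadjusted p = 0.0120, adjusted p = 0.760). This 1.47-fold difference was under the fold threshold of 1.5, and it lay between 0.47 and 0.72 on the log2 scale as each library was left out. The lowest value, without control replicate 2, had an unadjusted p of 0.0627 in edgeR. Hmox2, the constitutive heme oxygenase, was at 44.4 to 49.9 CPM after nicotine and 44.1 to 46.7 CPM in controls (log2 fold change 0.09, SE 0.14). For Gsta4 and Nqo2, and likewise for Gstm4 and Gstcd with lower nicotine libraries, the exact two-sided permutation test gave p = 0.1, the smallest that 3 libraries against 3 allow.

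Other genes of glutathione, thioredoxin, NADPH and selenium metabolism, a list of 82 that were all tested, gave no call either. In edgeR 0 of the 82 were called, 2 had an unadjusted p under 0.05 with a higher level after nicotine (2.44%, against 3.13% of all genes) and 1 with a lower level (1.22%, against 3.01%). DESeq2 gave 1 each way at this level, where 2.35% of all genes were higher and 2.36% lower. Over the 82 genes the median log2 fold change was -0.04. The nicotine and control libraries did not overlap for 7 of the 82 (8.54%, against 11.3% of all genes), with Mgst2, Ggt5 and Ggt6 among them. Mgst2, a microsomal glutathione transferase, was at 1.70, 1.72 and 2.03 CPM after nicotine and at 2.84, 3.10 and 3.35 CPM in controls, without overlap (log2 fold change -0.78, SE 0.25, edgeR adjusted p = 0.760). Ggt5, a gamma-glutamyl transferase that acts on leukotriene C4 and glutathione, was at 1.32, 2.79 and 2.23 CPM after nicotine and at 1.14, 1.27 and 0.581 CPM in controls (log2 fold change 1.1, SE 0.39, edgeR adjusted p = 0.762). Ggt6, of the same family, was at 0.573, 0.934 and 0.413 CPM and at 0.332, 0.284 and 0.343 CPM (log2 fold change 1.07, SE 0.47, edgeR adjusted p = 0.806). Without nicotine replicate 2 the values were 0.82 (edgeR unadjusted p = 0.0603) for Ggt5 and 0.61 (unadjusted p = 0.221) for Ggt6, and without control replicate 3 that of Ggt5 was 0.82 (unadjusted p = 0.0710). DESeq2 gave Ggt6 an unadjusted p of 0.0705. The next in order of p were the glutaredoxins Glrx2 and Glrx5 and the glyoxalase Glo1, with log2 fold changes of -0.48, -0.35 and -0.33. For each of these 3 genes nicotine replicate 2 was the lowest library, at 59.0, 56.7 and 75.8 CPM, and without it the values were -0.27, -0.22 and -0.17.

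The widest spread of the set was in Srxn1, sulfiredoxin, the enzyme that restores overoxidised peroxiredoxins. It was at 68.5, 27.6 and 23.8 CPM in nicotine replicates 1, 2 and 3 and at 76.0, 71.7 and 21.4 CPM in control replicates 1, 2 and 3. The libraries thus took either of a pair of levels, with 3 values at 68.5 to 76.0 CPM and 3 at 21.4 to 27.6 CPM, and both groups held both levels. The log2 fold change of -0.50 (SE 0.47, edgeR adjusted p = 0.854) moved to -1.13 (unadjusted p = 0.0233 in edgeR) without nicotine replicate 1, to -0.89 (unadjusted p = 0.0398) without control replicate 3 and to -0.22 without control replicate 1. It lay between -0.30 and -0.23 in the 3 other fits that left out a library. Of the other NRF2 readouts, Gclm, Nqo1, Txnrd1, Hmox1, Gclc and Gsr did not have this order of libraries, whereas Txn1 did. Txn1 was at 424 CPM in nicotine replicate 1 and at 460 and 444 CPM in control replicates 1 and 2. In nicotine replicates 2 and 3 and control replicate 3 it was at 181, 409 and 384 CPM. Prdx1, Prdx3, Prdx4, Gpx4, Gsta6 and Gstz1 also had the order of Srxn1. That order was held by 1374 of the 14506 tested genes with a mean of at least 1 CPM. The nearest high and low libraries were close in Prdx1 (340 and 336 CPM), Prdx4 (210 and 209 CPM) and Gpx4 (813 and 805 CPM).

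Genes with the same order of libraries as Srxn1 were looked for after its values were seen, among 14506 tested genes with a mean of at least 1 CPM. In 1374 of them the 3 libraries high in Srxn1 were all above the other 3, and in 1298 all below. By the log2 distance between the lowest of the high and the highest of the low libraries Srxn1 itself came first, at 1.30. After it came Msantd1, Coq10b, Rgs2, Nr4a3, Rbm7, Tp53rk and Fosl2, at 1.2 to 0.74. Rgs2, Nr4a3 and Fosl2 are known as rapidly induced genes. Fosl2, which encodes a subunit of the AP-1 transcription factor, was at 107, 21.1 and 17.0 CPM in the nicotine libraries and at 35.6, 148 and 18.5 CPM in the control libraries. Coq10b was at 186, 37.1 and 29.4 CPM and at 74.7, 170 and 31.3 CPM. Chac1, which breaks down glutathione and is one of the 82 pathway genes, had the opposite order, at 10.7, 22.0 and 23.2 CPM in the nicotine libraries and 12, 10.2 and 20.9 CPM in the control libraries. The 6 values of each gene come from the same libraries, and no test was made of this likeness.

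**Figure D5:**
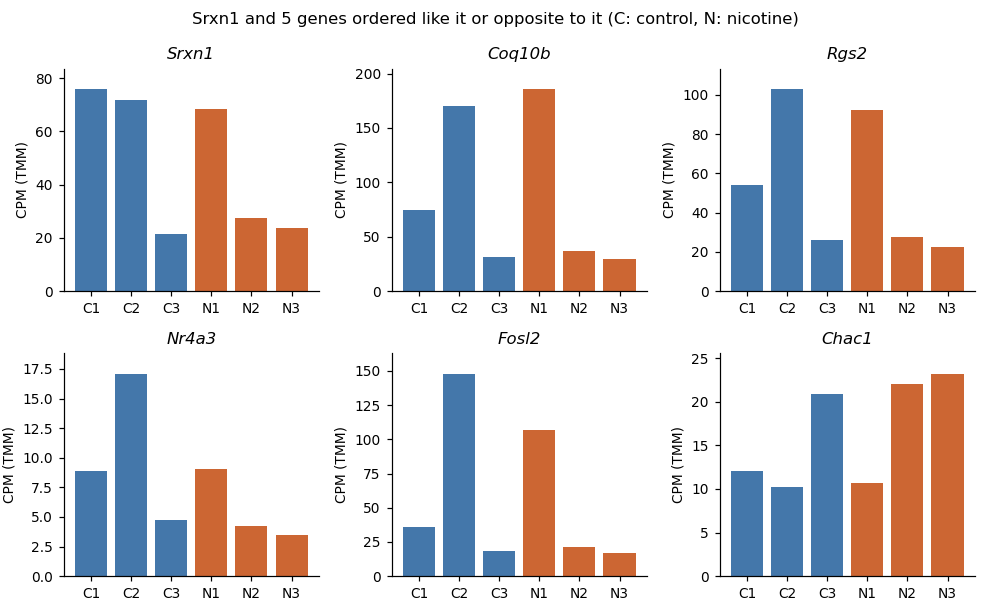
Level in CPM (bars, from 0) of Srxn1, of Coq10b, Rgs2, Nr4a3 and Fosl2 with the same order of libraries, and of Chac1 with the opposite order, in each library (C control, N nicotine). Srxn1 is at 68.5 to 76.0 CPM in C1, C2 and N1 and at 21.4 to 27.6 CPM in C3, N2 and N3, and Chac1 is at 10.2 to 12 CPM in the former and 20.9 to 23.2 CPM in the latter.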

How the data were processed

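RNA of 6 pituitary glands, 1 library per rat, was sequenced as 3 nicotine and 3 control libraries. The authors mapped stranded paired-end reads to rn7 with HISAT2 2.1.0 and deposited FeatureCounts counts per gene symbol of the ncbiRefSeq annotation, without normalization. The sources used here do not state the handling of multi-mapped reads, the strand setting or whether read pairs were counted, which bears on related transferase genes. Per the labels, the extraction protocol speaks of testis.

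In R 4.3.3, genes were filtered with filterByExpr, scaled by TMM and compared with the quasi-likelihood test of edgeR 4.0.16 (legacy fit off), with Benjamini-Hochberg adjustment over all genes tested. Standard errors are the log2 fold change over the root of the F statistic. CPM were divided by TMM-scaled library sizes. DESeq2 1.42.0, limma 3.58.1 (voom), other scalings and filters, thinning, a fit blocked on the replicate number and fits without each library were alternatives. The older edgeR fit, DESeq2 without each library, and the overlap of groups under other scalings were added after seeing the data. The fit was tested on simulated data. There edgeR recovered 48% of 100 genes with a log2 fold change of size 1 and 88% of 100 with size 2. Of its 159 calls 23 were false. DESeq2 recovered 59% and 88%, and 61 of its 208 calls were false.

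Named are the 10 members with the smallest p, the regulators, the glutathione synthesis, dismutase, catalase and textbook NRF2 genes, the 5 members with the largest mean CPM, and the 6 pathway genes with the smallest p. Others were named after their values were seen. The members and lists were chosen with earlier results of these data known. Samples with the same replicate number were not treated as pairs in the main fit, and p-values measure the spread between these rats. Libraries held 28318383 counts or more.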

Additional observations from a re-analysis of the deposited data

How the results depend on the processing

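Under all alternatives in edgeR and limma, 0 of the antioxidant and glutathione genes were called. DESeq2 called 0 with all libraries and 0 to 2 with 1 library left out, and the cause was not tested. The 2 were of 55 members without control replicate 1, where 88 of 24364 genes were called, and over the 6 such fits 42 to 188 genes were. The number with an unadjusted p under 0.05 was 4 to 5 under the alternatives with all 6 libraries. With voom in limma it was 4, with Gclm, at a lower level after nicotine, in place of Gpx2. The number was 2 to 8 with 1 library left out, with 2 without control replicate 2 and 8 without nicotine replicate 1 (6 higher and 2 lower, where 4.21% and 4.86% of all genes were). Among the 82 pathway genes it was 2 to 8 with 1 library left out, the 8 again without nicotine replicate 1 (3 higher and 5 lower, beside the same shares of all genes). The median log2 fold change of the members lay between -0.06 and 0.04 as each library was left out. The replicate number as a block called 0 members and gave 5 with an unadjusted p under 0.05, and changed no call. The labels do not say whether the numbers pair the samples. Deviations of same-numbered libraries correlated at 0.02, -0.25 and -0.09, which with so few libraries cannot decide it.

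Over the single named genes, DESeq2 without each library left aside, 451 values kept direction and call. The sign before rounding changed in 28, all in genes with a log2 fold change within 0.25 of 0. With voom the log2 fold change was -0.04 for Nfe2l2, -0.02 for Gclc, 0.00 for Gsr, 0.07 for Sod1 and -0.01 for Txnrd1. Library sizes alone gave 0.03 for Sod1 and 0.01 for Gpx3, no filter 0.00 for Sod1, and thinned counts -0.01 for Gclc. As each library was left out it ranged from -0.11 to 0.12 for Nfe2l2, -0.04 to 0.10 for Gclc, -0.01 to 0.10 for Gss, -0.04 to 0.13 for Gsr, -0.12 to 0.08 for Sod1, -0.28 to 0.01 for Nqo1, -0.14 to 0.15 for Hmox1, -0.14 to 0.27 for Txnrd1, -0.19 to 0.05 for Gpx3, -0.40 to 0.07 for Gpx4 and -0.11 to 0.01 for Prdx2.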
